A study of Homo sapiens with 16 samples.

Results

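SNAI1, SNAI2, ZEB1, ZEB2, TWIST1, TWIST2, CDH1, CDH2, VIM and EPCAM were followed in 2 lung cancer cell lines exposed to hepatocyte growth factor (HGF), the ligand of the receptor tyrosine kinase MET. These genes, chosen by symbol, are 10 of the 42351 genes in the count table. All 10 were among the 15067 genes that passed the filter on low counts, TWIST2 through the libraries of 1 line alone. The libraries hold polyadenylated RNA of cells with wt MET and of cells with MET∆14, a MET that lacks exon 14, after 0, 3, 6 or 12 h of HGF, with 2 replicates in each of the 8 conditions and 16 libraries in total. The wt MET cells are A549 in the sample labels, a lung adenocarcinoma line, and the MET∆14 cells are NCI-H596, a lung adenosquamous carcinoma line whose own MET gene carries the splice site change. For the wt MET line the sources differ, since the columns of the count table are headed H549 and the wt MET line that the study describes is EKVX, also a lung adenocarcinoma line. The name A549 is therefore that of the labels. Both lines were deprived of serum before HGF, for 12 h by the labels and for a longer period by the methods, and the dose of HGF in these libraries is not given in the sources used here. Each MET status is represented by 1 line, so that the MET status cannot be told apart from every other difference between the lines. The 0 h cells are the only ones without HGF, so that the effect of HGF cannot be told apart from that of further time without serum.

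Epithelial to mesenchymal transition (EMT) is the change of cells from a sheet held together by E-cadherin to separate, motile cells rich in vimentin. SNAI1 (Snail) and SNAI2 (Slug), ZEB1 and ZEB2, and TWIST1 and TWIST2 encode the transcription factors best known for it. The SNAI and ZEB proteins bind E-box sequences and repress CDH1, which encodes E-cadherin. CDH2 encodes N-cadherin, the cadherin that often replaces it, VIM encodes the intermediate filament vimentin, and EPCAM encodes an adhesion molecule of epithelial cells. HGF is also known as scatter factor for its power to disperse epithelial cells. In bulk RNA, fewer cells of a type and less RNA per cell cannot be told apart.

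Total counts ranged from 10158590 to 23909304 per library, with a median of 15811012. Replicates differed by more than sampling noise in every condition. The chi-square per gene was 36.11 in MET∆14 cells at 12 h, whose pair stood apart from the others. It was 10.36 in wt MET cells at 0 h and 2.851 to 4.677 in the remaining conditions. The wt MET 0 h pair is the baseline of every wt MET comparison with 0 h and of every difference of response. The study calls the replicates biological duplicates, while the labels do not say how the cultures were separated, and p-values measure the spread between these libraries. The keratin genes KRT8 and KRT18 were high in both lines, at mean levels of 726 and 1417 CPM (counts scaled to the size of the library) with wt MET and of 743 and 517 CPM with MET∆14. CDKN2A, lost from the genome of A549, had 0 counts in all 8 wt MET libraries. The alveolar genes SFTPB and SFTPA1 had 0 counts in all 16 libraries. The squamous genes KRT5, TP63 and DSG3 reached mean levels of 2119, 121 and 85.3 CPM with MET∆14 and of 0.123, 0.916 and 0.319 CPM with wt MET. KRT6A and KRT14 were likewise higher with MET∆14, at 387 and 43.3 CPM against 0.145 and 0 CPM. Other lung epithelial markers did not follow the labels in this way. SOX2 was at 1.08 CPM with MET∆14 and 0.662 CPM with wt MET, and MUC1 at 113 and 1.42 CPM. NKX2-1 and NAPSA were at 0.560 and 0.559 CPM with wt MET and at 0.00684 and 0.112 CPM with MET∆14. Of the leukocyte markers, PTPRC and CD3E did not exceed 2 counts in any library. CD14 had 1 to 6 counts with wt MET and 98 to 438 with MET∆14, and ITGAM 82 to 172 and 8 to 46. Of the fibroblast markers, DCN and LUM did not exceed 2 counts in any library. COL1A1 had 149 to 291 counts with wt MET and 172 to 671 with MET∆14. Collagen gene COL3A1 had 2273 to 7657 counts per library with MET∆14 and at most 6 with wt MET. Summed over the 9 fibroblast markers, the level ranged from 11.6 to 19.8 CPM with wt MET and from 188 to 347 CPM with MET∆14. Of these 9, 2 reached 10 counts in any wt MET library and 4 in any MET∆14 library. Over 7 leukocyte markers the sum was 41.0 to 53.0 CPM with wt MET and 116 to 179 CPM with MET∆14, most of it from CD68, and over 6 endothelial markers it was 0.404 to 1.91 and 2.19 to 3.22 CPM. The part of these differences in the results was not tested.

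RefSeq promoter windows on GRCh38.p14, which reach from 250 bases before to 50 bases after a transcription start, matched 5 of the 10 genes in 12 windows: 7 of ZEB1, 2 of CDH2 and 1 each of ZEB2, TWIST2 and VIM. No window was at hand for SNAI1, SNAI2, TWIST1, CDH1 and EPCAM. The windows of ZEB1, ZEB2 and VIM are given because these genes were called higher over time in both lines. The 250 bases before their first listed start are shown 5′ to 3′, with the E-box CAGGTG, searched on both strands, in capitals.
ZEB1, chr10:31318167-31318416, plus strand: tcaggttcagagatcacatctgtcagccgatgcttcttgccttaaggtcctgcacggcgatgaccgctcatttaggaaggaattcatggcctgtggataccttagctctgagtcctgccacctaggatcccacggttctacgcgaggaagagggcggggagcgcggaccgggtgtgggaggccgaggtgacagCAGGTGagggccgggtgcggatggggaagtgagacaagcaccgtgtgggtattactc
ZEB2, chr2:144520120-144520369, minus strand: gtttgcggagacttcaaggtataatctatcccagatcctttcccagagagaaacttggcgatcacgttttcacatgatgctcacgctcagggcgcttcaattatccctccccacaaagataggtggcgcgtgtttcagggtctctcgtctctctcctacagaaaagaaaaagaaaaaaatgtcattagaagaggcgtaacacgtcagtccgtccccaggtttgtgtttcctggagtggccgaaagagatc
VIM, chr10:17227991-17228240, plus strand: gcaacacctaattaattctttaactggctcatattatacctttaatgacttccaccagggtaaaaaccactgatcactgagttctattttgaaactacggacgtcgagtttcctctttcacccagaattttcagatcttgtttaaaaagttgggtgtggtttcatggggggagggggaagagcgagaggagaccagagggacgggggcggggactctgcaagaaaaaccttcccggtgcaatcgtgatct

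The sequence CAGGTG, the only form of the E-box searched for and marked, stood in 2 of the 12 windows, both of ZEB1. It stood in 20.6% of all 35116 windows of the same length. The window shown held it at 57 bases before the start, counted to the first base of the motif. A further ZEB1 window held it at -242 and -85 and at 33 bases after the start, and the stretches around these 3 matches follow with the motif, or its reverse complement, in capitals.
ZEB1 at -242, chr10:31318966-31318989, plus strand: ccccaccaCACCTGaggaaaactt
ZEB1 at -85, chr10:31319121-31319146, plus strand: tgtcgtaaacCAGGTGcggtggggag
ZEB1 at 33, chr10:31319239-31319264, plus strand: cggatggcccCAGGTGtaagcgcaga

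The sequence TGANTCA, the core of AP-1 sites and its own reverse complement, was found in 1 of the 12 windows, one of CDH2, and in 7.71% of all windows. A match describes the letters of these windows and is not a measured binding site.

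Before HGF, the lines differed in 8 of the 10 genes, 5 higher and 3 lower with MET∆14, where 80.2% of all genes tested were called, 40.6% higher and 39.6% lower. SNAI2, CDH1, EPCAM, TWIST1 and CDH2 were higher with MET∆14, and ZEB1, ZEB2 and TWIST2 were higher with wt MET. SNAI2 on chromosome 8 (hg38, 48917598 to 48921740, minus strand) was at 1.52 and 1.13 CPM in the wt MET libraries and at 58.3 and 63.7 CPM in the MET∆14 libraries. This is a 45.8-fold higher level with MET∆14 (log2 fold change 5.52 ± 0.175 SE, adjusted p 4.32e-13 in edgeR's quasi-likelihood test). CDH1 on chromosome 16 (68737292 to 68835537, plus strand) was at 12.6 and 5.94 CPM with wt MET and at 110 and 98.2 CPM with MET∆14, 11.2-fold higher (log2 3.49 ± 0.224, adjusted p 3.22e-09). EPCAM on chromosome 2 (47345158 to 47387601, plus strand) was at 1.88 and 2.97 CPM against 37.4 and 34.9 CPM, 14.8-fold higher with MET∆14 (log2 3.89 ± 0.177, adjusted p 1.86e-11). The line with the higher CDH1 and EPCAM was thus the line with the higher SNAI2 and with the lower ZEB1 and ZEB2.

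ZEB1 on chromosome 10 (31318495 to 31529814, plus strand) was at 54.0 and 50.1 CPM with wt MET and at 18.6 and 17.2 CPM with MET∆14 at 0 h, 2.91-fold lower with MET∆14 (log2 -1.54 ± 0.129, adjusted p 2.1e-08). ZEB2 on chromosome 2 (144364364 to 144521057, minus strand) was at 33.3 and 33.4 CPM against 9.19 and 9.44 CPM, 3.57-fold lower (log2 -1.84 ± 0.121, adjusted p 1.3e-09). The TWIST genes went opposite ways. TWIST1 on chromosome 7 (19020991 to 19117636, minus strand) was 5.58-fold higher with MET∆14 (log2 2.48 ± 0.249, adjusted p 1.97e-07). TWIST2 on chromosome 2 (238848032 to 238910534, plus strand) had 79 and 90 counts in the wt MET libraries and 4 in each MET∆14 library. It passed the filter on low counts through the wt MET libraries alone. Its call at 0 h, counted above, is thus no separate support for a difference, and no fold change is given.

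CDH2 on chromosome 18 (27932879 to 28177946, minus strand) differed little in size, at 54.0 and 58.3 CPM with wt MET and 68.5 and 72.8 CPM with MET∆14 (log2 0.33 ± 0.0921, adjusted p 0.00392). For SNAI1 on chromosome 20 (49982980 to 49988886, plus strand) and VIM on chromosome 10 (17228241 to 17237593, plus strand) the 0 h difference did not pass the test. SNAI1 was at 2.32 and 2.19 CPM against 2.15 and 2.53 CPM, with a 95% interval of the log2 difference of -0.49 to 0.62, and VIM at 1195 and 1294 CPM against 1035 and 1133 CPM, with an interval of -0.39 to -0.01 (adjusted p 0.0534). The VIM difference passed it when wt MET 0 h replicate 1 or either MET∆14 12 h replicate was left out (adjusted p 0.037, 0.00703 and 0.0162).

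Levels of different genes were compared per kilobase of the canonical transcript, as CPM per kb. With wt MET at 0 h, VIM stood at 578 CPM per kb, followed by CDH2 at 14.0, ZEB1 at 8.77, TWIST2 at 4.50 and ZEB2 at 3.6 CPM per kb. CDH1 (1.93), EPCAM (1.57) and SNAI1 (1.32 CPM per kb) followed within their spread, and TWIST1 (0.636) and SNAI2 (0.608 CPM per kb) came last and did not differ beyond theirs. With MET∆14 at 0 h the order after VIM (503 CPM per kb) began with SNAI2 at 28.0, then EPCAM at 23.4 and CDH1 at 21.6, which did not differ beyond their spread, and CDH2 at 17.6 CPM per kb. TWIST1 (3.57), ZEB1 (3.01), SNAI1 (1.37), ZEB2 (1.01) and TWIST2 (0.171 CPM per kb) closed the order. SNAI2 was thus last of the 10 in one line and second in the other. With the length of all annotated exons in place of the canonical transcript, SNAI2 kept these ranks, and ZEB2 moved from rank 5 to 7 with wt MET.

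**Figure D1:**
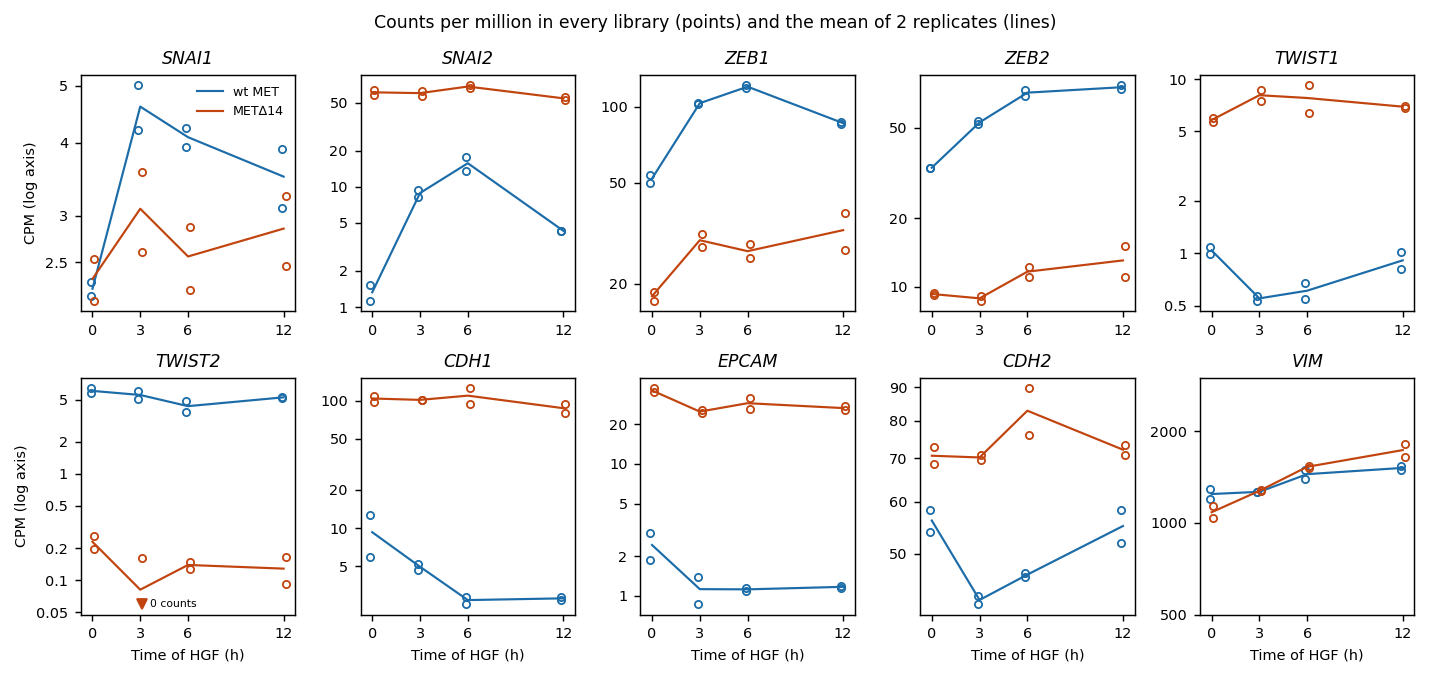
Each panel plots the level of 1 gene in CPM (log axis) against the time of HGF in hours, with 1 circle per library, lines through the mean of 2 replicates, and a triangle for a library with 0 counts of TWIST2. In the SNAI2 panel the wt MET circles rise from 1.13 and 1.52 to 13.6 and 17.8 CPM at 6 h and remain below every MET∆14 circle, whereas in the CDH1 panel they fall from 12.6 and 5.94 to 2.54 and 2.89 CPM.

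With wt MET, HGF was followed by a rise of SNAI2, ZEB1, ZEB2 and SNAI1 and a fall of CDH1 and EPCAM. At 3 h, 7 of the 10 genes were called, 4 higher and 3 lower, where 17.4% of all genes were called, 10.3% higher and 7.16% lower. At 6 h there were again 7, 4 higher and 3 lower (34.2% of all genes, 16.4% higher and 17.8% lower), and at 12 h there were 6, 4 higher and 2 lower (35.1%, 16.9% higher and 18.2% lower). In the test over the 3 times together, 8 were called, 5 higher and 3 lower (40.3%, 19.2% higher and 21.1% lower). From 3 to 6 h 2 were called, both higher (3.1% of all genes), and from 6 to 12 h 2, both lower (11.6%). TWIST1 and TWIST2 were the genes not called. The 3 h count fell to 4 without either wt MET 3 h replicate, and the 6 h count to 4 without wt MET 0 h replicate 2.

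SNAI2, whose product Slug represses E-cadherin in embryonic and tumor cells, rose most. Its level went from 1.52 and 1.13 CPM at 0 h to 8.28 and 9.46 CPM at 3 h and to 13.6 and 17.8 CPM at 6 h, and stood at 4.29 and 4.31 CPM at 12 h. Every library with HGF exceeded both 0 h libraries, and the counts behind them ranged from 16 at 0 h to 265 at 6 h. SNAI2 rose 6.64-fold at 3 h (log2 2.73 ± 0.213, adjusted p 5.34e-07), 11.8-fold at 6 h (log2 3.56 ± 0.195, adjusted p 9.94e-09) and 3.23-fold at 12 h (log2 1.69 ± 0.232, adjusted p 8.02e-05). The rise from 3 to 6 h passed the test (log2 0.82 ± 0.141, adjusted p 0.00457), and so did the fall from 6 to 12 h (log2 -1.86 ± 0.151, adjusted p 2.55e-06). The step from 3 to 6 h did not pass without wt MET 3 h replicate 1 (log2 0.72, adjusted p 0.113) or without wt MET 6 h replicate 2 (log2 0.61, adjusted p 0.106). At its highest, SNAI2 with wt MET still lay below the lowest MET∆14 library, at 52.7 CPM.

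SNAI1, whose product Snail is the founding member of the family and is short-lived as a protein, stood at 2.32 and 2.19 CPM at 0 h, 4.21 and 5.01 at 3 h, 3.93 and 4.24 at 6 h and 3.91 and 3.09 CPM at 12 h. All 6 libraries with HGF were above both 0 h libraries. SNAI1 rose 2.04-fold at 3 h (log2 1.03 ± 0.248, adjusted p 0.00972) and 1.81-fold at 6 h (log2 0.86 ± 0.248, adjusted p 0.0148), and did not pass at 12 h (log2 0.65, adjusted p 0.0558). With 31 to 82 counts per library, its calls were easily lost. The 3 h call was lost without wt MET 3 h replicate 2 (0.92, adjusted p 0.0782), and the 6 h call without wt MET 0 h replicate 1 (0.90, adjusted p 0.0561), 0 h replicate 2 (0.84, adjusted p 0.0626) or 6 h replicate 2 (0.82, adjusted p 0.0737). The test over all times (adjusted p 0.0188) did not pass without 0 h replicate 1 (adjusted p 0.08) or 0 h replicate 2 (adjusted p 0.0883). At 12 h the difference passed without MET∆14 12 h replicate 1 or 2 (adjusted p 0.0379 and 0.0411).

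The ZEB genes, which encode large zinc-finger and homeodomain repressors that are held down by the miR-200 family in epithelial cells, rose together with different courses. ZEB1 went from 54.0 and 50.1 CPM at 0 h to 103 and 104 CPM at 3 h, 121 and 118 CPM at 6 h, and 86.7 and 85.4 CPM at 12 h. No library with HGF overlapped with 0 h. ZEB1 rose 1.98-fold at 3 h (log2 0.99 ± 0.119, adjusted p 4.23e-05), 2.30-fold at 6 h (log2 1.2 ± 0.118, adjusted p 3.08e-06) and 1.65-fold at 12 h (log2 0.72 ± 0.118, adjusted p 0.000287). Its fall from 6 to 12 h passed the test (log2 -0.48 ± 0.114, adjusted p 0.0137), but not without wt MET 6 h replicate 1 or 2 or 12 h replicate 1 or 2 (log2 -0.49, -0.52, -0.52 and -0.49, adjusted p 0.0556 to 0.0763).

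ZEB2 did not turn back by 12 h. Its libraries were at 33.3 and 33.4 CPM at 0 h, 51.9 and 53.4 at 3 h, 73.1 and 69.0 at 6 h and 76.6 and 73.7 CPM at 12 h, again without overlap with 0 h. ZEB2 rose 1.58-fold at 3 h (log2 0.66 ± 0.108, adjusted p 0.000597), 2.13-fold at 6 h (log2 1.09 ± 0.107, adjusted p 2.84e-06) and 2.26-fold at 12 h (log2 1.17 ± 0.106, adjusted p 2.03e-06). The step from 3 to 6 h was near the threshold (log2 0.43 ± 0.104, adjusted p 0.0352) and was lost with 10 of the 16 libraries left out in turn, among them each wt MET 3 h and 6 h library (adjusted p 0.145 to 0.268), and with the replicate number as a block within each line, the replicate block (adjusted p 0.0756). The step from 6 to 12 h was 0.08 on the log2 scale, with a 95% interval of -0.14 to 0.30.

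TWIST1, a helix-loop-helix factor of mesoderm, had 15 and 14 counts at 0 h with wt MET, 8 and 7 at 3 h, 9 and 10 at 6 h, and 17 and 15 at 12 h. The 3 h and 6 h libraries were below those of 0 h, but no difference passed the test (log2 -0.91 at 3 h, adjusted p 0.142). TWIST2, its close relative, stood at 5.72 and 6.36 CPM at 0 h and between 3.84 and 5.98 CPM later, with adjusted p of 0.146 to 0.768.

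Of the epithelial genes, CDH1 fell with wt MET from 12.6 and 5.94 CPM at 0 h to 4.67 and 5.25 CPM at 3 h, 2.54 and 2.89 CPM at 6 h and 2.72 and 2.89 CPM at 12 h. The 0 h libraries were the least alike of the CDH1 pairs, with 174 and 84 counts, and both were above every library with HGF. CDH1 was lower 3.4-fold at 6 h (log2 -1.77 ± 0.315, adjusted p 0.000744) and 3.30-fold at 12 h (log2 -1.72 ± 0.305, adjusted p 0.000718). These calls held with every library left out in turn, although the falls were -1.13 and -1.09 on the log2 scale without wt MET 0 h replicate 1 (adjusted p 0.00787 and 0.00846), and -2.19 and -2.17 without wt MET 0 h replicate 2. At 3 h the fall just passed (log2 -0.90 ± 0.29, adjusted p 0.0473) and was lost with 13 of the 16 libraries left out in turn, to -0.26 (adjusted p 0.571) without wt MET 0 h replicate 1, and with the replicate block (adjusted p 0.0624).

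EPCAM, which marks most epithelia and carcinomas, stood at 1.88 and 2.97 CPM at 0 h with wt MET, 0.868 and 1.37 at 3 h, 1.09 and 1.14 at 6 h, and 1.19 and 1.14 CPM at 12 h. All libraries with HGF were below both 0 h libraries, on 13 to 25 counts each. EPCAM fell 2.20-fold at 3 h (log2 -1.14 ± 0.289, adjusted p 0.0131), 2.17-fold at 6 h (log2 -1.12 ± 0.279, adjusted p 0.00626) and 2.07-fold at 12 h (log2 -1.05 ± 0.269, adjusted p 0.00713). Without wt MET 0 h replicate 2 the falls were -0.74, -0.72 and -0.68 on the log2 scale and none passed (adjusted p 0.19, 0.14 and 0.152). The 3 h call was also lost without wt MET 3 h replicate 1 (-0.79, adjusted p 0.182) and the 6 h call without 6 h replicate 1 (-1.06, adjusted p 0.0536).

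The mesenchymal genes moved less. CDH2 was at 54.0 and 58.3 CPM at 0 h with wt MET, 43.0 and 41.9 at 3 h, 46.7 and 46.1 at 6 h, and 58.4 and 51.8 CPM at 12 h. It fell 1.32-fold at 3 h (log2 -0.40 ± 0.095, adjusted p 0.00805) and 1.21-fold at 6 h (log2 -0.28 ± 0.0939, adjusted p 0.0337), and at 12 h the difference was -0.03, with a 95% interval of -0.22 to 0.17. Both cadherin genes were thus called lower at 3 and 6 h. The 3 h call was lost without wt MET 0 h replicate 2 (-0.32, adjusted p 0.0761) or 3 h replicate 1 or 2 (-0.40 and -0.37, adjusted p 0.0619 and 0.0847), the 6 h call with 12 of the 16 libraries left out in turn (-0.33 to -0.19), with DESeq2 (adjusted p 0.0573) and with no filter (adjusted p 0.101), and the test over all times without wt MET 3 h replicate 2 (adjusted p 0.0523).

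VIM, the most abundant of the 10 by far, stood at 1195 and 1294 CPM at 0 h with wt MET, 1265 and 1266 at 3 h, 1399 and 1493 at 6 h and 1494 and 1539 CPM at 12 h. The 3 h libraries lay between those of 0 h, and the 6 and 12 h libraries above them. VIM rose 1.22-fold at 12 h (log2 0.29 ± 0.0899, adjusted p 0.0227) and missed the threshold at 6 h (log2 0.22, adjusted p 0.0761). The 12 h call was lost without wt MET 0 h replicate 1 (0.23, adjusted p 0.133) or 12 h replicate 1 or 2 (0.30 and 0.26, adjusted p 0.0974 and 0.134), and the test over all times (adjusted p 0.0378) with 13 of the 16 libraries left out in turn and with the replicate block (adjusted p 0.053). Without either MET∆14 12 h replicate the 6 h rise passed (adjusted p 0.00868 and 0.005). In the annotation, 24.6% of the exon length of VIM overlaps genes on the opposite strand, among them VIM-AS1, and for ZEB1, ZEB2, CDH1, CDH2, SNAI2 and TWIST1 this share is 3.58% to 7.06%. Whether the counting used strand is not given in the sources used here, so that reads of such partners cannot be told apart.

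With MET∆14, VIM and ZEB1 rose and EPCAM fell, while SNAI1, SNAI2, TWIST1 and CDH1 were not called at any time. At 3 h, 2 of the 10 genes were called, 1 higher and 1 lower, where 31.7% of all genes were called, 15.5% higher and 16.1% lower. At 6 h there were 4, all higher (44.1%, 21.6% higher and 22.5% lower), and at 12 h there were 4, 3 higher and 1 lower (38.3%, 18.3% higher and 20.1% lower). The test over the 3 times called 4, 3 higher and 1 lower (54.1% of all genes, 25.6% higher and 28.5% lower). Their share was thus near or below that of all genes. Without MET∆14 0 h replicate 1 or 3 h replicate 1 the 3 h count was 1, and the 6 h count was 2 with 10 of the 16 libraries left out in turn.

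VIM was at 1035 and 1133 CPM at 0 h with MET∆14, 1270 and 1279 CPM at 3 h, 1540 and 1518 CPM at 6 h, and 1650 and 1820 CPM at 12 h. All libraries with HGF were above both 0 h libraries. VIM rose 1.41-fold at 6 h (log2 0.50 ± 0.09, adjusted p 0.000396) and 1.60-fold at 12 h (log2 0.68 ± 0.0902, adjusted p 3.89e-05). At 3 h the difference missed the threshold (log2 0.23 ± 0.0899, adjusted p 0.0601), and it passed without wt MET 0 h replicate 1 or MET∆14 12 h replicate 1 or 2 (adjusted p 0.0473, 0.00487 and 0.00568).

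ZEB1 stood at 18.6 and 17.2 CPM at 0 h with MET∆14, 27.9 and 31.5 at 3 h, 28.6 and 25.2 at 6 h, and 38.0 and 27.2 CPM at 12 h. It rose 1.67-fold at 3 h (log2 0.74 ± 0.131, adjusted p 0.000521), 1.5-fold at 6 h (log2 0.59 ± 0.131, adjusted p 0.00204) and 1.85-fold at 12 h (log2 0.88 ± 0.131, adjusted p 1e-04). These calls held with every library left out in turn. The level reached remained below that of wt MET cells before HGF.

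ZEB2 followed later. It was at 9.19 and 9.44 CPM at 0 h and 8.71 and 9.11 CPM at 3 h, where the difference was -0.06 on the log2 scale with a 95% interval of -0.35 to 0.23. It then stood at 11.1 and 12.3 CPM at 6 h and at 15.1 and 11.03 CPM at 12 h. The rise just passed at 6 h (log2 0.33 ± 0.128, adjusted p 0.0479) and passed at 12 h (1.43-fold, log2 0.51 ± 0.13, adjusted p 0.00584). The 6 h call was lost with 14 of the 16 libraries left out in turn (adjusted p up to 0.296) and with DESeq2, no filter on low counts, a stricter filter of at least 10 counts in every library, the replicate block or each line fitted alone (adjusted p 0.0595 to 0.0932), and the 12 h call without MET∆14 12 h replicate 1 (0.24, adjusted p 0.222), which belongs to the pair that stood apart.

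EPCAM was at 37.4 and 34.9 CPM at 0 h with MET∆14, 24.4 and 25.5 at 3 h, 26.2 and 31.7 at 6 h and 25.8 and 27.3 CPM at 12 h, with every library after HGF below those of 0 h. It fell 1.45-fold at 3 h (log2 -0.53 ± 0.132, adjusted p 0.00626) and 1.36-fold at 12 h (log2 -0.45 ± 0.132, adjusted p 0.0147), and not past the threshold at 6 h (log2 -0.31, adjusted p 0.0619). The 3 h call was lost without MET∆14 0 h replicate 1 (-0.48, adjusted p 0.0644) or 3 h replicate 1 (-0.50, adjusted p 0.0614), the 12 h call without 0 h replicate 1 (-0.40, adjusted p 0.108), and the test over all times without 0 h replicate 1 or 2 (adjusted p 0.131 and 0.0617). At 6 h the fall passed without wt MET 0 h replicate 1 or 2, MET∆14 6 h replicate 2 or MET∆14 12 h replicate 1 or 2 (adjusted p 0.0213 to 0.0444).

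CDH1 remained near its 0 h level with MET∆14, at 110 and 98.2 CPM at 0 h, 102 and 101 at 3 h, 94.3 and 125 at 6 h and 93.8 and 80.7 CPM at 12 h. The 95% intervals of its log2 difference from 0 h were -0.43 to 0.36 at 3 h, -0.31 to 0.47 at 6 h and -0.65 to 0.15 at 12 h. SNAI2 ranged from 52.7 to 69.7 CPM over the 8 libraries, with intervals of -0.26 to 0.21, -0.07 to 0.39 and -0.41 to 0.07. Its test over all times missed the threshold (adjusted p 0.104) and passed without MET∆14 12 h replicate 2 (mean log2 change -0.03, adjusted p 0.0348). SNAI1 ranged from 2.15 to 3.57 CPM and TWIST1 from 5.67 to 9.21 CPM, with the 6 TWIST1 libraries after HGF all above those of 0 h (log2 0.47 at 3 h and 0.44 at 6 h, adjusted p 0.0725 and 0.068). TWIST1 passed at 3 h without MET∆14 6 h replicate 1 (adjusted p 0.0492), at 6 h without MET∆14 6 h replicate 1 or 12 h replicate 1 (0.65 and 0.45, adjusted p 0.0181 and 0.0494), and over all times without MET∆14 6 h replicate 1 (adjusted p 0.0438). TWIST2 had at most 4 counts in any MET∆14 library, which leaves a change over time undetectable at this depth.

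CDH2 was between 68.5 and 73.4 CPM in 6 of the 8 MET∆14 libraries and at 76.0 and 89.6 CPM at 6 h. The 6 h rise (1.17-fold, log2 0.23 ± 0.0901, adjusted p 0.0484) was lost with 12 of the 16 libraries left out in turn, to 0.10 (adjusted p 0.518) without MET∆14 6 h replicate 2, and with no filter, a stricter filter, the replicate block or each line alone (adjusted p 0.0542 to 0.0807). The test over all times missed the threshold (adjusted p 0.0856) and passed without MET∆14 6 h replicate 1 or 12 h replicate 1 or 2 (adjusted p 0.0408, 0.0297 and 0.0378).

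**Figure D2:**
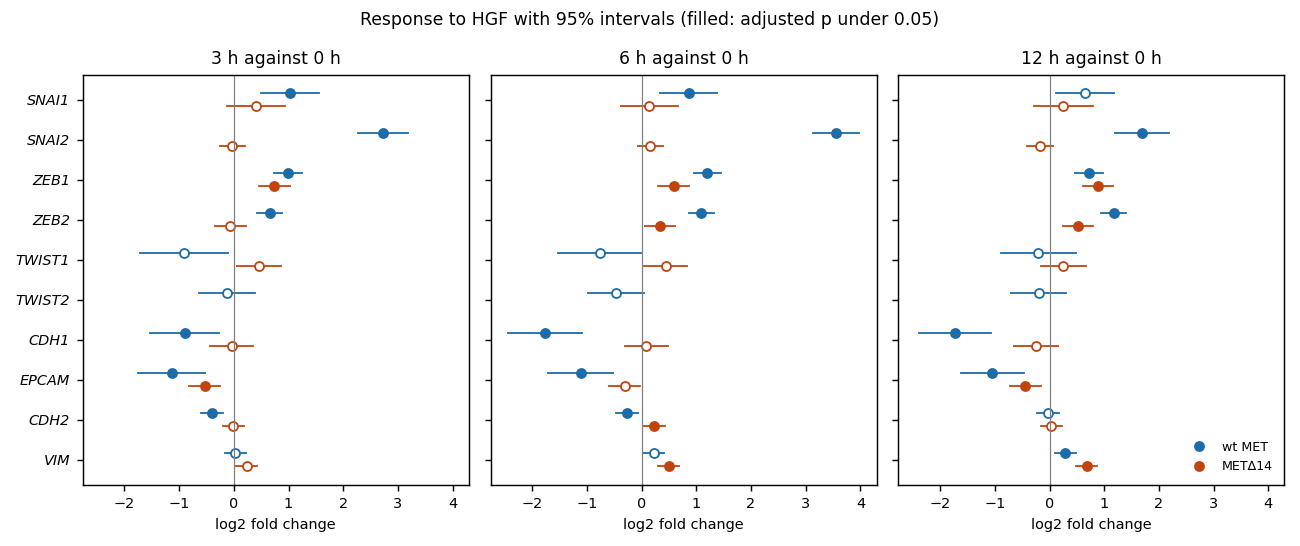
Log2 fold changes against 0 h of the same line at 3, 6 and 12 h (x axis) for each gene (y axis), as points with 95% intervals, filled where the adjusted p is under 0.05; TWIST2 with MET∆14 is left out because it had at most 4 counts per library. The wt MET point of SNAI2 lies farthest right at each time, at 2.73, 3.56 and 1.69, and the CDH1 points of the lines part at 6 and 12 h, whereas the ZEB1 points of both lines are right of 0 at every time.

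Whether the lines responded differently was tested by the difference of the responses, MET∆14 minus wt MET, so that the 0 h levels cancel. Over the 3 times, 6 of the 10 genes were called, 3 with a higher and 3 with a lower response with MET∆14, where 37.6% of all genes were called, 20.3% higher and 17.3% lower. At 3 h there were 3, 1 higher and 2 lower (17.4%, 8.93% higher and 8.47% lower). At 6 h there were 6, 3 higher and 3 lower (30.2%, 16.4% higher and 13.8% lower), and at 12 h there were 4, 2 higher and 2 lower (24%, 13% higher and 11% lower). SNAI2 differed at every time, by -2.76 ± 0.244 at 3 h, -3.40 ± 0.231 at 6 h and -1.86 ± 0.259 at 12 h on the log2 scale (adjusted p 2.49e-06, 1.38e-07 and 0.000134). ZEB2 differed by -0.72 ± 0.173, -0.76 ± 0.167 and -0.66 ± 0.167 (adjusted p 0.00908, 0.00284 and 0.00985). These calls of SNAI2 and ZEB2 held with every library left out in turn.

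ZEB1 differed at 6 h (-0.62 ± 0.176, adjusted p 0.0149), but not past the threshold at 3 h (-0.25, adjusted p 0.399) or 12 h (0.16, adjusted p 0.57). Without MET∆14 6 h replicate 2 the 6 h difference was -0.55 (adjusted p 0.0625). CDH1 differed at 6 h by 1.85 ± 0.365 (adjusted p 0.00172; 1.21, still called, without wt MET 0 h replicate 1) and at 12 h by 1.47 ± 0.359 (adjusted p 0.00883), and the 12 h call was lost without wt MET 0 h replicate 1 (0.84, adjusted p 0.0533), wt MET 12 h replicate 1 (1.43, adjusted p 0.0507) or MET∆14 12 h replicate 1 (1.36, adjusted p 0.0515). CDH2 differed at 6 h by 0.51 ± 0.13 (adjusted p 0.00796), a call lost without MET∆14 0 h replicate 1 (0.43, adjusted p 0.0558) or 6 h replicate 2 (0.35, adjusted p 0.08).

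TWIST1, which was lower at 3 h with wt MET and higher with MET∆14 without passing in either line, differed between the lines at 3 h (1.38 ± 0.419, adjusted p 0.0337) and 6 h (1.21 ± 0.402, adjusted p 0.0334). Each of these calls was lost with 7 of the 16 libraries left out in turn (adjusted p up to 0.134 and 0.165). DESeq2 made neither call (adjusted p 0.0964 and 0.109), nor did the replicate block at 3 h (adjusted p 0.0505) or the fit with no filter at 6 h (adjusted p 0.0541). VIM differed at 12 h (0.39 ± 0.127, adjusted p 0.0349), a call lost with 12 of the 16 left out in turn, and not over all times (adjusted p 0.1), where it passed with DESeq2 (adjusted p 0.0155) and without either MET∆14 12 h replicate (adjusted p 0.00476 and 0.0412). For SNAI1 and EPCAM no difference passed, with 95% intervals at 6 h of -1.46 to 0.03 and 0.14 to 1.46. EPCAM over all times passed without wt MET 0 h replicate 1 (0.96, adjusted p 0.0485).

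An additive model of line plus time, the formula of the study, fits 1 time course to both lines together. Its test asks for a change over time in this common fit, so that a change in 1 line alone can be called. It called 4 of the 10 genes, where 30.6% of all genes were called, 13.4% higher and 17.2% lower: ZEB1, ZEB2 and VIM higher, with mean log2 changes over the 3 times of 0.86, 0.63 and 0.32 (adjusted p 0.000611, 0.00135 and 0.00281), and EPCAM lower by -0.64 (adjusted p 0.0117). SNAI1, SNAI2, CDH1 and CDH2 were not called in it (adjusted p 0.0586, 0.0728, 0.113 and 0.321), although they had passed with wt MET alone. DESeq2, the tool of the study, called SNAI1, SNAI2 and CDH1 as well (adjusted p 0.0335, 0.0442 and 0.0229), 7 of the 10 in all, and not CDH2 (adjusted p 0.339). With no filter on low counts, edgeR called SNAI2 and CDH1 (adjusted p 2.1e-18 and 2.43e-07) and not SNAI1 or CDH2 (adjusted p 0.0906 and 0.673). The mean log2 changes of SNAI2 and CDH1 were 0.75 and -0.66 in that fit and 0.74 and -0.67 with the filter. Their adjusted p thus depended on the filter, while the size of the change hardly did.

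Ratios between genes of one library, taken per kilobase, do not depend on the scaling of the libraries. The ratio of CDH1 to CDH2 with wt MET was 0.194 and 0.0850 at 0 h, 0.0907 and 0.105 at 3 h, 0.0454 and 0.0524 at 6 h, and 0.0388 and 0.0466 at 12 h. The 6 and 12 h libraries were below all others. With MET∆14 it ranged from 0.949 to 1.34 over the 8 libraries, so that the lines did not overlap at any time. The ratio of SNAI2 to SNAI1 with wt MET was 0.513 and 0.404 at 0 h, 1.54 and 1.48 at 3 h, 2.70 and 3.29 at 6 h and 0.858 and 1.09 at 12 h, so that SNAI1 was the higher of the pair at 0 h and SNAI2 at 3 and 6 h. With the length of all annotated exons this order held at 0 and 6 h, and at 3 h both genes stood at 2.70 CPM per kb. With MET∆14 it ranged from 12.5 to 23.1. The ratio of ZEB1 to ZEB2 with wt MET was 2.53 and 2.34 at 0 h, 3.08 and 3.03 at 3 h, 2.59 and 2.67 at 6 h and 1.77 and 1.81 at 12 h. With MET∆14 it was 3.15 and 2.84 at 0 h and 5.003 and 5.399 at 3 h, and between 3.21 and 4.03 later. In both lines it was highest at 3 h, and it fell below its 0 h values at 12 h with wt MET but not with MET∆14.

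**Figure D3:**
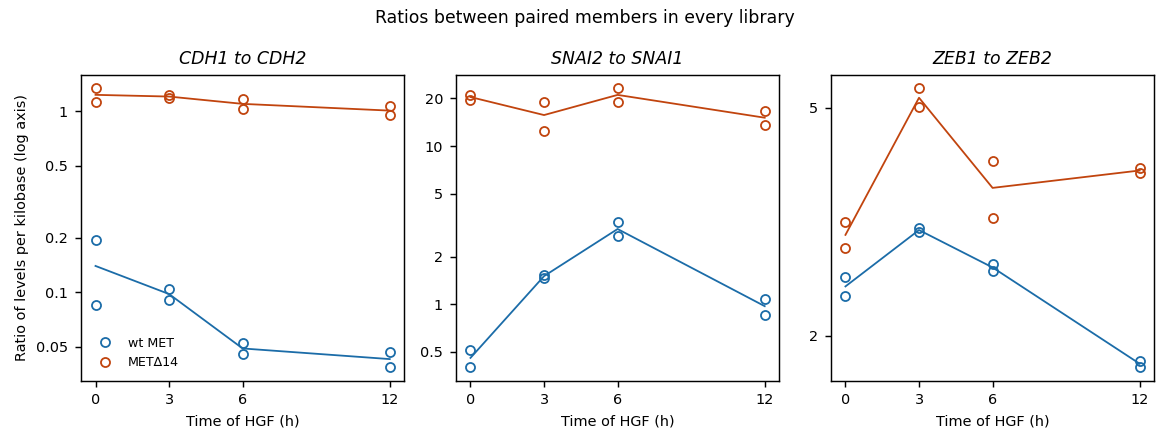
Ratios of levels per kilobase (log axis) against the time of HGF in hours, with 1 circle per library and lines through the means of the 2 replicates. The CDH1 to CDH2 ratio with wt MET falls from 0.194 and 0.0850 to 0.0388 and 0.0466 and remains far below the MET∆14 circles, which lie between 0.949 and 1.34.

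The genes around these 10 were described through 9 lists, by the number called over the 3 times of each line and the median of the mean log2 fold change over the tested genes of the list. Over all genes tested this median was -0.05 in both lines, with 40.3% called with wt MET and 54.1% with MET∆14. Of 15 genes of the cadherin-catenin complex and nectins, 11 were called with wt MET, 4 higher and 7 lower (median -0.17), and 11 with MET∆14, 9 higher and 2 lower (median 0.20). VCL, which encodes vinculin, the link of junctions to actin, was at 215 and 225 CPM at 0 h with MET∆14 and at 528 and 480 CPM at 3 h, with a mean log2 rise of 0.98 (adjusted p 1.72e-07). With wt MET it was at 398 and 378 CPM at 0 h and at 453 and 446 CPM at 3 h. CTNNAL1, a relative of alpha-catenin, rose in both lines, on average over the times by 0.95 with MET∆14 (adjusted p 6.24e-06) and by 0.48 in the other line (adjusted p 0.000172). NECTIN4, an adhesion molecule of epithelia, fell by 1.16 with MET∆14 (adjusted p 0.000171), from 8.73 and 9.74 CPM at 0 h to 3.50 and 3.96 CPM at 3 h.

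Of the other cadherins, 10 of 20 passed the filter on low counts. With wt MET 1 was called, lower (median -0.12), and with MET∆14 3 were called, all lower (median -0.15). CDH10 with MET∆14 was at 5.21 and 6.01 CPM at 0 h and at 1.80 and 2.10 CPM at 6 h (mean log2 change -0.78, adjusted p 0.000305). CDH18 was at 3.13 and 3.03 CPM at 0 h and at 1.2 and 0.771 CPM at 6 h (-0.83, adjusted p 0.0014). Both are type II cadherins best known from the nervous system. CDH17, the liver-intestine cadherin, fell with wt MET to 5.81 and 5.85 CPM at 12 h from 13.2 and 8.77 CPM at 0 h and had 0 counts in every MET∆14 library. Its call (mean log2 change -0.44, adjusted p 0.0347) was lost without wt MET 0 h replicate 1 (-0.12, adjusted p 0.057), 6 h replicate 2 (-0.47, adjusted p 0.0583) or 12 h replicate 1 or 2 (-0.43 in each, adjusted p 0.179 and 0.154), and with DESeq2 or the replicate block (adjusted p 0.0776 and 0.0614).

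Among the regulators of the epithelial state, 12 were tested. With wt MET 6 were called, 3 higher and 3 lower (median -0.24), and with MET∆14 10, 2 higher and 8 lower (median -0.31). ELF3, an epithelial ETS factor, fell in both lines. It went from 160 and 96.1 CPM to 48.8 and 55.3 CPM at 6 h with wt MET (mean log2 change -0.84, adjusted p 0.000156) and from 36.8 and 32.1 CPM to 4.42 and 3.98 CPM with MET∆14 (-2.49, adjusted p 2.52e-07). GRHL3, a grainyhead factor of epidermal barriers, was lower at 3 h with MET∆14, at 3.18 and 4.75 CPM against 14.5 and 13.9 CPM at 0 h (mean log2 change -1.44, adjusted p 2.7e-06). FOXA2, a forkhead factor of endoderm, rose with MET∆14 on low counts, from 1.11 and 1.49 CPM to 2.25 and 2.74 CPM at 6 h (mean log2 change 0.77, adjusted p 0.00556, and 0.0614 with each line fitted alone), and was called lower with wt MET, from 58.0 and 63.1 CPM to 43.1 and 41.2 CPM at 3 h (-0.22, adjusted p 0.000304), where its 12 h libraries stood at 67.1 and 69.4 CPM.

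Of the further EMT factors, 14 were tested. With wt MET 10 were called, 9 higher and 1 lower (median 0.35), and with MET∆14 10, 6 higher and 4 lower (median 0.01). HMGA2, a chromatin protein of embryonic cells, rose with MET∆14 from 8.34 and 9.04 CPM to 37.2 and 41.4 CPM at 3 h and 57.8 and 52.5 CPM at 6 h (mean log2 change 2.5, adjusted p 2.72e-08). With wt MET it rose to 185 and 190 CPM at 12 h from 77.6 and 101 CPM at 0 h (0.46, adjusted p 1.02e-05). SOX9, a factor of cartilage and of epithelial progenitors, rose in both lines, by a mean log2 change of 1.64 with MET∆14 (adjusted p 1.61e-08) and of 0.61 in the other line (adjusted p 0.000292). PRRX2, a paired-related homeobox factor, rose with wt MET on low counts, from 2.39 and 0.919 CPM to 3.51 and 6.12 CPM at 6 h (0.88, adjusted p 0.0205), a call lost without wt MET 6 h replicate 2 (0.74, adjusted p 0.26).

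Of 24 corepressors, kinases and ubiquitin ligases that act with or on the SNAI and ZEB proteins, 14 were called with wt MET, 9 higher and 5 lower (median 0.11), and 18 with MET∆14, 12 higher and 6 lower (median 0.15). FBXO45, a subunit of a ligase for several EMT factors, rose with MET∆14 from 34.4 and 32.2 CPM to 79.0 and 67.0 CPM at 3 h (mean log2 change 1.01, adjusted p 1.17e-06). With wt MET it was also higher, at 37.6 and 38.2 CPM at 0 h and at 48.7 and 53.3 CPM at 3 h. FBXW7, a ligase subunit of the same kind, fell with MET∆14 from 101 and 99.7 CPM to 55.1 and 59.8 CPM at 3 h (-0.85, adjusted p 1.04e-06). LATS2, a kinase reported to stabilise Snail, rose with wt MET from 106 and 110 CPM to 199 and 191 CPM at 6 h (0.73, adjusted p 1.33e-05). With MET∆14 it was at 16.9 and 19.1 CPM at 0 h, 30.5 and 27.2 CPM at 3 h and 18.8 and 18.8 CPM at 6 h.

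Mesenchymal genes did not move one way as a list. Of 20 tested, 8 were called with wt MET, 5 higher and 3 lower (median -0.10), and 10 with MET∆14, 4 higher and 6 lower (median -0.23). TNC, the matrix protein tenascin-C, rose with wt MET from 54.8 and 47.8 CPM to 212 and 230 CPM at 12 h (mean log2 change 1.37, adjusted p 1.09e-07), and with MET∆14 from 154 and 165 CPM to 437 and 325 CPM (0.57, adjusted p 1.36e-06). NT5E, the surface enzyme CD73, rose by 1.02 with MET∆14 (adjusted p 7.6e-08) and by 0.26 in the other line (adjusted p 0.000962). TAGLN, an actin-binding protein of smooth muscle, rose with MET∆14 from 13.7 and 17.3 CPM to 39.8 and 55.2 CPM at 6 h (1.44, adjusted p 0.000123). For TAGLN 34.1% of the exon length overlaps genes on the opposite strand and 38.1% genes on its own, so that its counts are uncertain.

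Of 16 intermediate filament genes and partners of vimentin, 11 were called with wt MET, 4 higher and 7 lower (median -0.12), and 12 with MET∆14, 7 higher and 5 lower (median 0.18). AURKB, a mitotic kinase that phosphorylates vimentin, fell with wt MET from 8.61 and 9.69 CPM to 3.99 and 2.69 CPM at 6 h (mean log2 change -1.90, adjusted p 1.07e-06), and LMNB1, a nuclear lamin, from 16.9 and 13.9 CPM to 5.57 and 6.06 CPM (-1.2, adjusted p 2.65e-06). Both are known from dividing cells. With MET∆14 both were also called lower, with mean log2 changes of -0.59 for AURKB (adjusted p 0.00428) and -0.51 for LMNB1 (adjusted p 3.85e-05). The AURKB call with MET∆14 was lost without MET∆14 0 h replicate 2 (-0.55).

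Of 17 partners and proteases of EPCAM, 7 were called with wt MET, 3 higher and 4 lower (median -0.18), and 11 with MET∆14, 3 higher and 8 lower (median -0.16). CLDN7, a claudin bound by EPCAM, fell with MET∆14 to 13.8 and 17.4 CPM at 12 h from 36.6 and 32.6 CPM (mean log2 change -0.62, adjusted p 0.000214). FHL2, which carries the signal of cleaved EPCAM, rose with MET∆14 from 66.8 and 68.9 CPM to 219 and 206 CPM at 3 h (0.84, adjusted p 2.9e-09) and was at 61.5 and 69.8 CPM at 12 h.

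Of 17 genes of the TGF-beta pathway, the best studied input to EMT, 14 were called with wt MET, 9 higher and 5 lower (median 0.13), and 10 with MET∆14, 4 higher and 6 lower (median -0.03). SKIL, an inhibitor of SMAD proteins, rose with wt MET from 88.1 and 86.8 CPM to 305 and 368 CPM at 3 h (mean log2 change 1.59, adjusted p 5.79e-08), and with MET∆14 was at 36.0 and 33.8 CPM at 0 h and 38.4 and 40.3 CPM at 3 h. SMAD6, an inhibitory SMAD, fell with wt MET from 19.7 and 13.0 CPM to 4.10 and 4.44 CPM at 12 h (-1.27, adjusted p 0.00038). TGFBR3, the co-receptor betaglycan, fell in both lines, by 1.11 with MET∆14 (adjusted p 3.08e-06) and by 0.88 in the other line (adjusted p 0.00236) on the log2 scale.

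Genes whose course over the libraries was most like that of each gene were sought by the Pearson correlation of log2 CPM, with the mean of each line removed, over 16 libraries. For SNAI2 they were ARID5A (0.963), ZNF24 (0.96) and CNNM4 (0.949), for ZEB1 SPAG9 (0.963), CREB5 (0.96) and AVL9 (0.947), and for ZEB2 RAB3GAP2 (0.973), ITSN2 (0.961) and FER (0.952). For CDH1 they were FAM20C (0.94), MPI (0.938) and TMED4 (0.928), and for VIM NT5E (0.965), SERPINE2 (0.956) and SNRPA1 (0.951). Over the 8 MET∆14 libraries, TWIST1 was nearest to MET (0.957), followed by CXCL3 (0.933) and TLCD3A (0.932), and over the 8 wt MET libraries TWIST2 to GUCY1B2 (0.954). Each value is the highest among all tested genes with at least 10 counts in every library used. Over 8 libraries the highest of so many correlations can be large without a link between the genes. For SNAI1, CDH2 and EPCAM no correlation exceeded 0.895. All of these libraries share the same times and scaling, and the values describe likeness alone.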

How the data were processed

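The authors deposited 1 table of whole-number counts per gene. The submitters' processing notes name STAR 2.5.0, RSEM 1.3.2 and hg38. How the counts became whole numbers, the annotation and the use of strand are not given in the sources used here. Genes were kept by filterByExpr (minimum count 10, minimum total 15), which left 15067 of 42351 genes and 99.958% of the counts. Counts were tested in edgeR 4.0.16 (R 4.3.3) with TMM scaling, 1 coefficient for each of 8 conditions over all 16 libraries, robust quasi-likelihood F tests and Benjamini-Hochberg adjustment over all tested genes, with a threshold of 0.05. Comparisons with 0 h in a line share its 0 h libraries. An additive model of line and time followed the formula of the study, there fitted with DESeq2. The study also describes amplified wt MET cells in its transcriptomic analysis, and no such cells are among these libraries. The fit here is therefore not the fit of the study. CPM were computed on TMM-scaled totals, and gene positions and lengths come from GENCODE on hg38. For the test over the 3 times, the mean log2 fold change gives the direction. Total counts of 10158590 to 23909304 per library set the precision, and the floor of detection was taken as 3 counts.

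The 10 genes and all gene lists were chosen with earlier results of these data known. All 10 genes are named. Of each other list up to 3 genes are named, those with the largest mean change over the times in a line where they were called. Some genes that this rule selects are not reported here. In the 4 marker lists, the 15 lung epithelial, 9 fibroblast, 7 leukocyte and 6 endothelial genes served to check the labels. A list of 5 antisense genes had no gene in the table. On simulated data, with 200 of 15067 genes changed 2-fold, 85.5% were recovered for MET∆14 at 3 h with 17 false calls, and 66% for the difference of response at 3 h with 4. The changed genes were drawn only from those above a minimum expected count with MET∆14, so that the recovery does not hold for genes near the floor. In the data far more genes were called, 31.7% for MET∆14 at 3 h. Replicate numbers did not pair the libraries (correlations of replicate differences between times of -0.159 to 0.035). Alternatives were DESeq2 1.42.0, its size factors, no filter, at least 10 counts in every library, a replicate block, each line alone, and each library left out.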

Additional observations from a re-analysis of the deposited data

Results flagged for a closer look

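The response over the 3 times differed between the lines for 6 of the 10 genes by a test of the difference itself, against 37.6% of all genes. SNAI2 differed by -2.67 on the log2 scale (MET∆14 minus wt MET, edgeR adjusted p 5.59e-07) and ZEB2 by -0.71 (adjusted p 0.00646), and both remained called with each library left out in turn. CDH1 differed by 1.40 (adjusted p 0.00496), and by 0.76, still called, without wt MET 0 h replicate 1. ZEB1 differed by -0.23 (adjusted p 0.0103), a mean over times at which the difference had opposite signs, -0.62 at 6 h and 0.16 at 12 h. CDH2 differed by 0.32 (adjusted p 0.0123), a call lost without wt MET 6 h replicate 1 or 2, MET∆14 0 h replicate 1 or MET∆14 6 h replicate 2 (0.26 to 0.31, adjusted p 0.051 to 0.06). TWIST1 differed by 1.01 (adjusted p 0.0411) on 7 to 17 counts per wt MET library, a call lost with 13 of the 16 libraries left out in turn (adjusted p up to 0.111) and with DESeq2, no filter or the replicate block (adjusted p 0.133, 0.0573 and 0.0639). These differences compare 1 line of each MET status, so that line and MET status cannot be told apart.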

How the results depend on the processing

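Of the counts over all genes, that for wt MET 6 h against 3 h (467) was 860 with no filter on low counts, 309 with the replicate block and 951 with each line alone. With each line alone, wt MET 12 h against 6 h gave 2801 (1743 otherwise), MET∆14 6 h against 3 h 695 (1472) and MET∆14 12 h against 6 h 1422 (2806). With single libraries left out, the counts ranged from 1363 to 4141 for wt MET at 3 h, 3268 to 6642 at 6 h, 3046 to 6868 at 12 h, 96 to 1264 for 6 h against 3 h and 686 to 3182 for 12 h against 6 h. For MET∆14 they ranged from 3029 to 6380 at 3 h, 3722 to 7157 at 12 h, 459 to 3100 for 6 h against 3 h and 852 to 6434 for 12 h against 6 h, and for the difference at 3 h from 1743 to 4132. Of the 10 genes, 4 to 7 were called for wt MET at 3 h, 4 to 8 at 6 h, 1 to 3 for MET∆14 at 3 h and 2 to 6 at 6 h. At 6 h with MET∆14, no filter, the block and each line alone gave 2 (4 otherwise), and DESeq2 called 7 for the time effect of the additive model (4). Without genes under 10 counts in any library, the other cadherins had 0 called with wt MET and 1 with MET∆14, and the epithelial regulators 6 with MET∆14, with fewer genes tested.

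The replicate block left the numbers called over the 3 times at 7 (8 without it) for wt MET, 4 (4) for MET∆14 and 5 (6) for the difference. Uncalled values changed sign in a few settings. SNAI2 with MET∆14 was 0.026 at 3 h and 0.027 over all times with each line alone, and 0.0045 and 0.0048 over all times with DESeq2 size factors and DESeq2. CDH1 with MET∆14 at 3 h was 0.014 with each line alone. CDH2 with MET∆14 at 3 h was 0.0079 with DESeq2 size factors, 0.0078 with DESeq2 and 0.041 with each line alone. With single libraries left out, SNAI1 ranged from -0.077 to 0.28 (MET∆14 6 h) and -0.045 to 0.19 (0 h difference), SNAI2 with MET∆14 from -0.088 to 0.044 (3 h) and -0.078 to 0.053 (all times), TWIST2 from -0.23 to 0.013 (wt MET 3 h), and CDH1 with MET∆14 from -0.11 to 0.045 (3 h), -0.15 to 0.25 (6 h) and -0.15 to 0.0062 (all times). CDH2 ranged from -0.13 to 0.052 (wt MET 12 h), -0.051 to 0.038 (MET∆14 3 h) and -0.017 to 0.074 (MET∆14 12 h), VIM from -0.031 to 0.11 (wt MET 3 h), and the called mean change of NECTIN4 with wt MET (-0.17, adjusted p 0.0452) from -0.43 to 0.16. The NECTIN4 call was lost with DESeq2 and the replicate block (adjusted p 0.0861 and 0.0815). It was also lost when any wt MET library at 3, 6 or 12 h was left out (-0.20 to -0.12), and without some MET∆14 libraries. Some uncalled changes passed in other settings. SNAI1 with wt MET at 12 h passed with DESeq2 size factors, a stricter filter, the replicate block and each line alone (adjusted p 0.0288 to 0.0498), VIM with wt MET at 6 h with DESeq2, a stricter filter and each line alone (0.00822 to 0.0387), VIM with MET∆14 at 3 h and between the lines at 0 h with DESeq2 (0.00896 and 0.0321), and EPCAM with MET∆14 at 6 h with a stricter filter (0.0297). The cause was not tested. Depth limits TWIST1 and EPCAM with wt MET and TWIST2 with MET∆14.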
